A study of Mus musculus with 12 samples.

Results

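The Rab GTPase genes of T cells from the Peyer's patch were described over 4 sorted fractions. A gene was taken as a member when its symbol in the array's probe table was Rab followed by digits and an optional letter, and when every array of 1 fraction or more (3 arrays each) detected its probe. A probe counted as detected where the deposited value table lists a value for it. Of 58 such probes on the array, 56 met the rule, and they stand for 55 genes among the 16942 genes tested. Rab13 was detected on 6 of 12 arrays and Rab3c on 0 of 12, so neither was a member. By the role that is best known for each, 10 members act in exocytosis and granule release, 8 at early endosomes, 8 in recycling, 8 at late endosomes and lysosomes and 16 between the endoplasmic reticulum and the Golgi, and 5 were placed in none of these. Effectors and regulators such as Rab3gap1 and Rab11fip3 were not members.

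Rab proteins are small GTPases that mark membranes. A nucleotide exchange factor (GEF) loads a Rab with GTP, the loaded Rab recruits effectors such as motors and tethers, and a GTPase activating protein (GAP) ends the cycle, after which a GDP dissociation inhibitor lifts the prenylated protein off the membrane. In killer T cells Rab27a docks lytic granules at the plasma membrane, Rab7 directs late endosomes to lysosomes, Rab5 proteins build early endosomes, and Rab4 and Rab11 proteins return receptors such as the T cell receptor to the surface.

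The DN fraction carried TCRβ and neither CD4 nor CD8β, the CD4 fraction TCRβ with CD4, the CD8 fraction TCRβ with CD8β, and the γδ fraction the γδ T cell receptor. All came from C57BL/6 mice aged 10 weeks, with cells pooled from 3 to 5 male and female animals and a stated purity above 98%, and the labels name no treatment or altered gene. Each fraction had 3 arrays, numbered 1 to 3, each hybridised with Cy5-labelled amplified RNA. The labels do not say that each number stands for separate mice. A p-value here weighs a difference between fractions only against the spread of these libraries. Values are log2 signals after normexp correction with an offset of 50 and quantile normalisation, and a log2 difference is the first named fraction minus the second. The median spot stood at 70.7 to 77.9 intensity units per array against 58.6 to 62.2 for the mean of the blank spots, and 53 to 55 of the 55 Rab genes were detected per array. With 3 arrays a fraction, their number limits the precision.

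The libraries labelled CD8 1 and γδ 1 go against their labels. The log2 signal of Cd8b1, the CD8β chain, was 6.29, 6.26 and 6.28 in DN, 8.26, 7.93 and 7.80 in CD4, 8.57, 13.80 and 13.62 in CD8 and 13.91, 8.29 and 8.14 in γδ libraries. Cd8a was high in DN libraries (14.42, 14.35 and 14.22), so the DN label does not mean low Cd8a. It was 7.75 to 7.96 in CD4, 14.70, 13.85 and 13.49 in CD8 and 13.80, 13.83 and 13.49 in γδ libraries. Cd163l1, a scavenger receptor gene of γδ T cells, stood at 8.23 in CD8 1, 6.11 in γδ 1 and 8.57 and 8.48 in γδ 2 and γδ 3. Each library keeps its label here, and results are given for all 12 libraries and for the 10 left without this pair. The fit without the pair leaves CD8 and γδ with 2 libraries each, which correlated at 0.997 to 0.998 across genes. Genes of B cells also differed between the fractions: the mean log2 signal of 15 measured genes of an 18-gene B cell list was 7.97, 8.48 and 8.47 in DN, 6.49, 6.27 and 6.33 in CD4, 7.54, 6.29 and 6.32 in CD8 and 6.49, 8.11 and 8.15 in γδ libraries. All 15 were detected on every DN array, and 14 or 15 were detected on each CD4 array. In sorted pools such as these, fewer cells of a type and less RNA per cell cannot be told apart.

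With all 12 libraries as labelled, 0 of 55 Rab genes passed limma's moderated F test over the 4 fractions at an adjusted p under 0.05, where 1.17% of all genes tested passed, and 7 of the 55 had an unadjusted p under 0.05, as did 10.4% of all genes. The count was also 0 in each of the 6 comparisons. Across all genes tested, 2.28% were called in DN against CD4, 0.0177% in DN against CD8, 0.0118% in DN against γδ, 1.07% in CD4 against CD8, 1.15% in CD4 against γδ and 0% in CD8 against γδ. At an unadjusted p under 0.05 there were 7, 7, 3, 2, 5 and 2 of the 55 Rab genes in these comparisons in that order, where 13.9%, 8.75%, 4.43%, 7.31%, 9.55% and 1.94% of all genes passed. The lowest adjusted p of a Rab gene was 0.126, in DN against CD4. With all 12 libraries and the replicate number as a block, 4 Rab genes (7.27%) were called in the F test or any comparison, against 6.28% of all genes. With the array series as a term, 6 (10.9%) were called, against 10.2%. The array series is a letter in the name of each array, H for replicate 1 and B for replicates 2 and 3. It was not read from the sample labels.

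Without the libraries labelled CD8 1 and γδ 1, 11 Rab genes (20%) were called in the F test or in at least 1 comparison, against 19.8% of all genes tested. In this fit the share was near that of all genes. With the replicate number as a block it was 50.9% of Rab genes against 38.8% of all genes, and with the array series as a term 60% against 42.8%, so the reading depends on that choice. Those called were Rab30, Rab20, Rab39, Rab17, Rab44, Rab4a, Rab9b, Rab29, Rab28, Rab43 and Rab1a. The F test called 9 (16.4%, against 14.7% of all genes). DN against CD4 gave 3 Rab genes higher and 1 lower in DN (10.6% of all genes called, 5.06% higher and 5.54% lower), and DN against CD8 gave 5 higher and 4 lower in DN (12.9%, 5.98% higher and 6.95% lower). DN against γδ gave 1, lower in DN (0.968%, 0.596% lower), CD4 against CD8 gave 2, both lower in CD4 (5.39%, 2.6% lower), CD4 against γδ gave 4, all lower in CD4 (8.99%, 4.62% lower), and CD8 against γδ gave 3 higher and 4 lower in CD8 (7.37%, 3.61% higher and 3.76% lower). The median log2 difference over the 55 genes lay between -0.02 and 0.02 in the 6 comparisons, and that over all genes tested between -0.01 and 0.01.

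**Figure D1:**
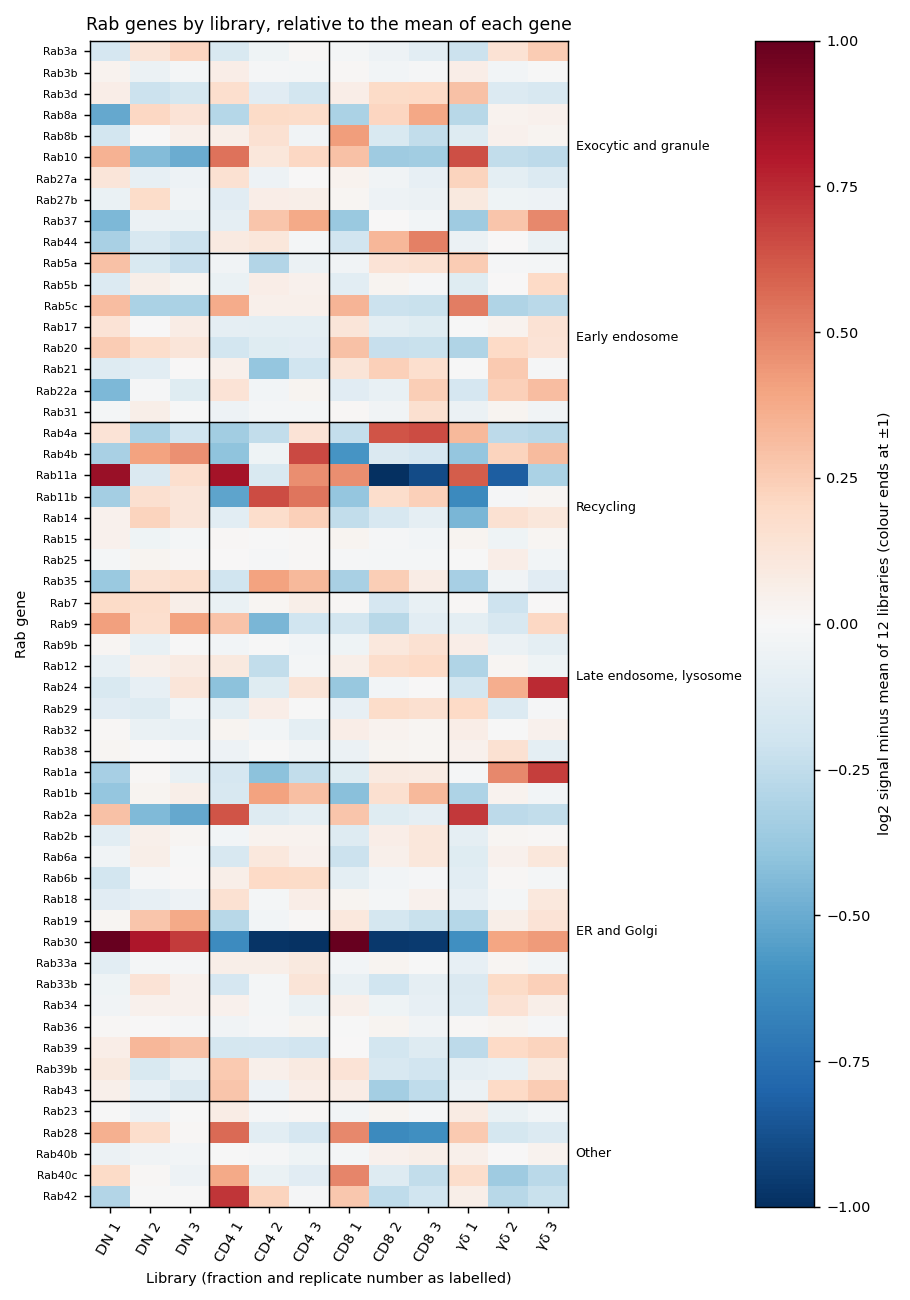
Log2 signal of each of the 55 Rab genes (rows, grouped by role) in each of the 12 libraries (columns, by fraction and number as labelled), with the gene's mean over the 12 libraries taken off. Colour runs over 1 log2 unit below (blue) to 1 above (red) that mean, and Rab30 shows the strongest split, red in DN, in CD8 1 and in γδ 2 and γδ 3 and blue in the rest.

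Rab30, a Rab of the Golgi, had the widest range of the family over the 12 libraries. Its log2 signal was 8.75, 7.88 and 7.77 in DN, 6.44, 6.09 and 6.08 in CD4, 8.19, 6.11 and 6.11 in CD8 and 6.46, 7.47 and 7.49 in γδ libraries. The 3 DN values lay above all 3 CD4 values and above CD8 2 and CD8 3, while CD8 1 fell within the DN range. In the deposited value table, which is on a linear intensity scale, Rab30 read 512.5, 233.9 and 201.3 in DN, between 17.2 and 46.1 in CD4, 325.2, 18.6 and 21.4 in CD8 and 44.8, 164.5 and 144.5 in γδ libraries. Without CD8 1 and γδ 1, Rab30 was 3.80-fold higher in DN than in CD4 libraries (log2 difference 1.93 ± 0.25, SE, limma adjusted p = 0.00278) and 4.06-fold higher than in CD8 libraries (2.02 ± 0.28, adjusted p = 0.00366). It was lower in CD4 than in γδ (-1.28 ± 0.28, adjusted p = 0.031) and lower in CD8 than in γδ libraries (-1.37 ± 0.30, adjusted p = 0.0384). Both calls against DN held in each of 10 fits that left out 1 more library. The call of CD4 against γδ was lost without any one of CD4 2, CD4 3, CD8 2, CD8 3, γδ 2 or γδ 3, and that of CD8 against γδ also without DN 2 (adjusted p 0.0568 to 0.193 over both). As labelled, the adjusted p was 0.127 for DN against CD4 and 0.545 for DN against CD8.

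Rab20, which acts on early endosomes and phagosomes, and Rab39, described on Golgi and phagosomal membranes, split the libraries the same way with smaller differences. The log2 signal of Rab20 was 6.63, 6.56 and 6.50 in DN, 6.20, 6.26 and 6.27 in CD4, 6.68, 6.15 and 6.16 in CD8 and 6.08, 6.58 and 6.52 in γδ libraries. That of Rab39 was 6.30, 6.56 and 6.52 in DN, 6.05, 6.06 and 6.04 in CD4, 6.24, 6.05 and 6.11 in CD8 and 5.97, 6.43 and 6.45 in γδ libraries. In both genes the 3 DN libraries, CD8 1, γδ 2 and γδ 3 lay above the other 6. The share of all genes that split the libraries in this way was not counted. Without the pair, Rab20 was higher in DN than in CD4 (0.32 ± 0.04, SE, adjusted p = 0.00219) and CD8 libraries (0.41 ± 0.04, adjusted p = 0.00124). It was lower in CD4 (-0.31 ± 0.04, adjusted p = 0.00524) and in CD8 (-0.40 ± 0.05, adjusted p = 0.00329) than in γδ libraries. Of these calls, that of CD4 against γδ was lost without γδ 2 (adjusted p = 0.0601) and the others held in all 10 fits. Rab39 was higher in DN than in CD4 (0.41 ± 0.07, adjusted p = 0.00808) and CD8 (0.38 ± 0.07, adjusted p = 0.0148), and lower in CD4 (-0.39, adjusted p = 0.0179) and in CD8 (-0.36, adjusted p = 0.0382) than in γδ libraries. The first of these held in all 10 fits. The call of DN against CD8 was lost without DN 3, CD8 2 or CD8 3 (adjusted p 0.0503 to 0.103), that of CD4 against γδ without CD4 2, CD4 3, γδ 2 or γδ 3 (0.0527 to 0.132), and that of CD8 against γδ without DN 3, CD4 2, CD4 3, CD8 2, CD8 3, γδ 2 or γδ 3 (0.0597 to 0.201). On the value table the call of Rab20 in CD4 against γδ (0.0747) and that of Rab39 in CD8 against γδ (0.0599) missed the threshold. Both probes are dim, and the offset narrows dim differences: on the value table DN exceeded CD4 by 0.88 log2 units for Rab20 and by 1.39 for Rab39, against 3.52 for Rab30.

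Rab17, a Rab of endocytic transport across polarised epithelia, was called higher in DN than in CD8 libraries by a narrow margin. Its log2 signal was 6.04, 5.91 and 5.98 in DN, 5.82, 5.81 and 5.81 in CD4, 6.02, 5.81 and 5.78 in CD8 and 5.91, 5.94 and 6.05 in γδ libraries. The difference was 0.18 ± 0.05 (SE, adjusted p = 0.0498), and it lost the call without any library other than DN 2 (0.0521 to 0.251). On the value table the call passed (limma adjusted p = 0.00463), with DN above CD8 by 2.07 log2 units. With median scaling it missed the threshold (0.129).

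The B cell genes moved with Rab30, Rab20 and Rab39 by library. Rab17 followed them less closely: it read 5.91 in γδ 1 and 5.91 in DN 2, where the B cell list averaged 6.49 and 8.48. The libraries in which Rab30, Rab20 and Rab39 were high, DN 1 to DN 3, CD8 1, γδ 2 and γδ 3, had a mean of the B cell list of 7.54 to 8.48, and the other 6 libraries had 6.27 to 6.49. Without the pair, 12 of the 15 B cell genes were called higher in DN than in CD4 (median log2 difference 1.502) and 11 higher in DN than in CD8 (1.52), 0 were called in DN against γδ (0.05), and 9 were called lower in CD4 and 9 lower in CD8 than in γδ libraries (-1.31 and -1.33). The mean of 17 epithelial genes was 6.67 to 6.81 in DN, 6.26 to 6.29 in CD4, 6.70, 6.30 and 6.27 in CD8 and 6.29, 6.51 and 6.51 in γδ libraries. The plasma cell list (7 of 9 genes measured) averaged 6.90 to 7.19 in the 6 libraries with high Rab30 and 6.25 to 6.76 in the other 6, and the dendritic cell list (8 of 10) 6.36 to 6.52 and 6.08 to 6.24. The part of B cell, epithelial, plasma cell or dendritic cell RNA in the differences of Rab30, Rab20, Rab39 and Rab17 was not tested.

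**Figure D2:**
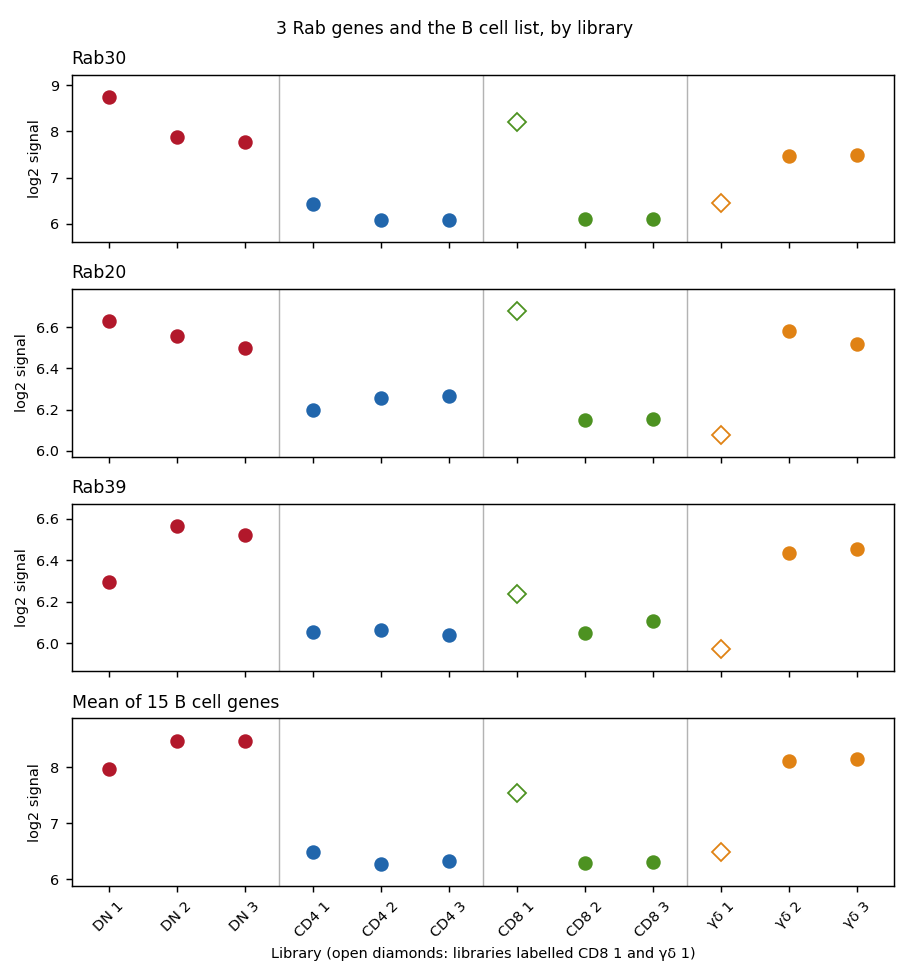
Log2 signal of Rab30, Rab20 and Rab39 and the mean log2 signal of 15 B cell genes (y axes, each with its own scale) in the 12 libraries (x axis, fraction and number as labelled). In each panel the DN libraries, CD8 1, γδ 2 and γδ 3 lie above the CD4 libraries, CD8 2, CD8 3 and γδ 1.

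The windows of 250 bases before the annotated start are printed for Rab20 and Rab39, which split the libraries alike, and for Rab1a, which is described further on and did not. They are from the RefSeq promoter table of GRCm38.p6, on the strand of the gene, 5′ to 3′. Rab20 lies at chr8:11478641-11478890 on the minus strand, Rab39 at chr9:53706233-53706482 on the minus strand and Rab1a at chr11:20201162-20201411 on the plus strand. Capitals mark the motifs found on either strand among 7 searched.
Rab20: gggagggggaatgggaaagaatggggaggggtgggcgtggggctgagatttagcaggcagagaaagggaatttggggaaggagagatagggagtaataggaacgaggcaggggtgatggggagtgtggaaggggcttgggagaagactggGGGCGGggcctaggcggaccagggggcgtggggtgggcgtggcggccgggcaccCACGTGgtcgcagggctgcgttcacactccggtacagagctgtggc
Rab39: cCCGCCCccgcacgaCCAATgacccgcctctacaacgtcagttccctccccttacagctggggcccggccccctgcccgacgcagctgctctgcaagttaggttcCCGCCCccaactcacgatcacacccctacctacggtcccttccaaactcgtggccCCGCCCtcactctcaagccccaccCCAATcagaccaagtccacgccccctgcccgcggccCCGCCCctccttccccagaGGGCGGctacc
Rab1a: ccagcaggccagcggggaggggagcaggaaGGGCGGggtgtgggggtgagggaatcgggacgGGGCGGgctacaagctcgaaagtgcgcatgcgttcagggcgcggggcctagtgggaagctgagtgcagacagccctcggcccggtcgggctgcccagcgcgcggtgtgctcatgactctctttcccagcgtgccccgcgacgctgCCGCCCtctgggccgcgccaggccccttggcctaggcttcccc
The GC box (GGGCGG) was found once in the Rab20 window, 5 times in that of Rab39 and 3 times in that of Rab1a, and 32.7% of all 32851 windows of the table hold it. Rab20 had 1 E-box (CACGTG, in 6.02% of windows), and Rab39 had 2 CCAAT boxes (CCAAT, in 33.8%). The motifs of ETS (CCGGAAG, 6.91%), RUNX (TGTGGT, 14%) and EBF (0.779%) factors and the octamer (ATGCAAAT, 1.6%) were not in these 3 windows. None of the motif matches overlapped another. A match describes the letters only. The table holds 46 of the 55 Rab genes.

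Among the 10 members of exocytosis and granule release, Rab44 was the only one called without the pair. Rab44 is a large, atypical Rab found on granules and lysosome-related organelles. Its log2 signal was 5.91, 6.08 and 6.03 in DN, 6.33, 6.36 and 6.22 in CD4, 6.05, 6.57 and 6.74 in CD8 and 6.18, 6.24 and 6.17 in γδ libraries. The DN values lay below all CD4 values and all γδ values, and CD8 2 and CD8 3 were the highest of the 12. Without the pair, Rab44 was lower in DN than in CD8 (-0.65 ± 0.07, SE, adjusted p = 0.00131) and CD4 libraries (-0.30 ± 0.06, adjusted p = 0.026), lower in CD4 than in CD8 (-0.35 ± 0.07, adjusted p = 0.0346) and higher in CD8 than in γδ libraries (0.45 ± 0.08, adjusted p = 0.0148). The call of DN against CD8 held in all 10 fits that left out a further library. That of DN against CD4 was lost without DN 1, DN 3, CD4 1 or CD4 2 (0.0513 to 0.0932), that of CD8 against γδ without CD8 3, γδ 2 or γδ 3 (0.0692 to 0.113), and that of CD4 against CD8 without any library other than DN 1 or CD4 1 (0.0503 to 0.238). On the value table the call of DN against CD8 passed (0.00554), and the other 3 missed the threshold (0.0543 to 0.284).

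The other 9 of this role were not called without the pair. Rab27a had a log2 signal of 6.37, 6.16 and 6.19 in DN, 6.40, 6.20 and 6.25 in CD4, 6.28, 6.21 and 6.16 in CD8 and 6.47, 6.14 and 6.11 in γδ libraries, and the ranges of the 4 fractions overlap. Its 95% interval was -0.20 to 0.12 log2 units for DN against CD4, -0.13 to 0.24 for DN against CD8 and -0.07 to 0.29 for DN against γδ, which bounds a difference on this scale and does not show equal levels. Rab27b, its close relative, read 5.87 to 6.17 over all libraries. Rab3d, a Rab of regulated secretion, had 6.91, 6.63 and 6.67 in DN, 7.02, 6.73 and 6.67 in CD4, 6.91, 7.04 and 7.05 in CD8 and 7.14, 6.71 and 6.69 in γδ libraries. Rab37, of granule secretion in mast cells and macrophages, had 7.52, 7.91 and 7.90 in DN, 7.88, 8.25 and 8.34 in CD4, 7.59, 7.97 and 7.94 in CD8 and 7.61, 8.24 and 8.45 in γδ libraries. In both genes replicate 1 stood apart from replicates 2 and 3 in most fractions. The remaining members of this role were Rab3a, Rab3b, Rab8a, Rab8b and Rab10.

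Of the 8 recycling members, Rab4a, which runs the fast return of receptors from early endosomes, was called. Its log2 signal was 7.73, 7.28 and 7.39 in DN, 7.24, 7.35 and 7.73 in CD4, 7.35, 8.22 and 8.24 in CD8 and 7.91, 7.33 and 7.31 in γδ libraries. CD8 2 and CD8 3 were the highest of the 12, and γδ 1 came next. Without the pair, Rab4a was lower in DN (-0.77 ± 0.17, SE, adjusted p = 0.0251) and in CD4 (-0.79 ± 0.17, adjusted p = 0.0417) than in CD8, and 1.88-fold higher in CD8 than in γδ libraries (0.91 ± 0.18, adjusted p = 0.0271). The call of DN against CD8 was lost without DN 2, DN 3, CD8 2, CD8 3, γδ 2 or γδ 3 (0.0508 to 0.145), that of CD4 against CD8 without any library other than DN 1 or CD4 3 (0.0553 to 0.231), and that of CD8 against γδ without DN 3, CD8 2, CD8 3, γδ 2 or γδ 3 (0.0517 to 0.151). On the value table all 3 missed the threshold (0.0528 to 0.102).

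Rab11a, of the slow recycling compartment, had the widest range among members not called. Its log2 signal was 10.93, 9.93 and 10.24 in DN, 10.91, 9.93 and 10.54 in CD4, 10.54, 9.02 and 9.18 in CD8 and 10.68, 9.25 and 9.75 in γδ libraries. Replicate 1 was the highest of its fraction in all 4. The log2 difference of DN and CD8 was 1.27 (95% interval 0.41 to 2.13, adjusted p = 0.0674). Rab11b has 2 probes on the array, of which the brighter was used, and the other read 5.72 to 5.88 in all libraries. Rab4b, Rab14, Rab15, Rab25 and Rab35 were not called, and Rab25, an epithelial member, was detected on 10 of 12 arrays.

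Of the 8 early endosome members, 6 were not called: Rab5a, Rab5b, Rab5c, Rab21, Rab22a and Rab31. Rab5a, a core regulator of early endosome fusion, had a log2 signal of 9.29, 8.85 and 8.77 in DN, 8.97, 8.70 and 8.94 in CD4, 8.96, 9.13 and 9.15 in CD8 and 9.25, 8.99 and 8.98 in γδ libraries. The DN range overlaps that of each other fraction. DN 2 and DN 3 lay below CD8 2, CD8 3, γδ 2 and γδ 3, while DN 1, of the other array series, lay above these. The 95% interval was -0.22 to 0.42 for DN against CD4 and -0.53 to 0.18 for DN against CD8. With the array series as a term, Rab5a and Rab5c were called in the F test or in a comparison.

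Of the 8 members at late endosomes and lysosomes, Rab9b and Rab29 were called, both with small differences. Rab9b, of transport from late endosomes to the Golgi, had a log2 signal of 6.35, 6.26 and 6.33 in DN, 6.30, 6.32 and 6.30 in CD4, 6.29, 6.43 and 6.48 in CD8 and 6.40, 6.27 and 6.23 in γδ libraries. Rab29, which recruits the kinase Lrrk2 to lysosomes and the Golgi, had 7.07, 7.06 and 7.16 in DN, 7.09, 7.25 and 7.18 in CD4, 7.10, 7.37 and 7.34 in CD8 and 7.38, 7.05 and 7.17 in γδ libraries. In both, CD8 2 and CD8 3 were above all DN, CD4, γδ 2 and γδ 3 libraries. Without the pair, Rab9b was lower in DN than in CD8 (-0.15 ± 0.03, SE, adjusted p = 0.0335) and higher in CD8 than in γδ (0.21 ± 0.04, adjusted p = 0.0186), and Rab29 was lower in DN than in CD8 libraries (-0.26 ± 0.06, adjusted p = 0.0296). For Rab9b the first call was lost without any library other than DN 1 or CD4 1 (0.0551 to 0.22) and the second without CD8 2, CD8 3, γδ 2 or γδ 3 (0.0641 to 0.142), and for Rab29 the call was lost without DN 1, DN 2, CD4 3, CD8 2 or CD8 3 (0.0528 to 0.153). On the value table none of the 3 passed (0.242 to 0.488). Rab7 had a log2 signal of 10.69, 10.67 and 10.55 in DN, 10.43, 10.51 and 10.55 in CD4, 10.51, 10.33 and 10.42 in CD8 and 10.51, 10.29 and 10.50 in γδ libraries, and its log2 difference of DN and CD8 was 0.26 (0.09 to 0.44, adjusted p = 0.061). Rab24, linked to autophagy, had 8.74, 8.81 and 9.02 in DN, 8.49, 8.78 and 9.02 in CD4, 8.51, 8.87 and 8.90 in CD8 and 8.72, 9.26 and 9.64 in γδ libraries, and CD4 against γδ stood at -0.69 (-1.09 to -0.28, adjusted p = 0.0536). Rab9, Rab12, Rab32 and Rab38 were not called either.

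**Figure D3:**
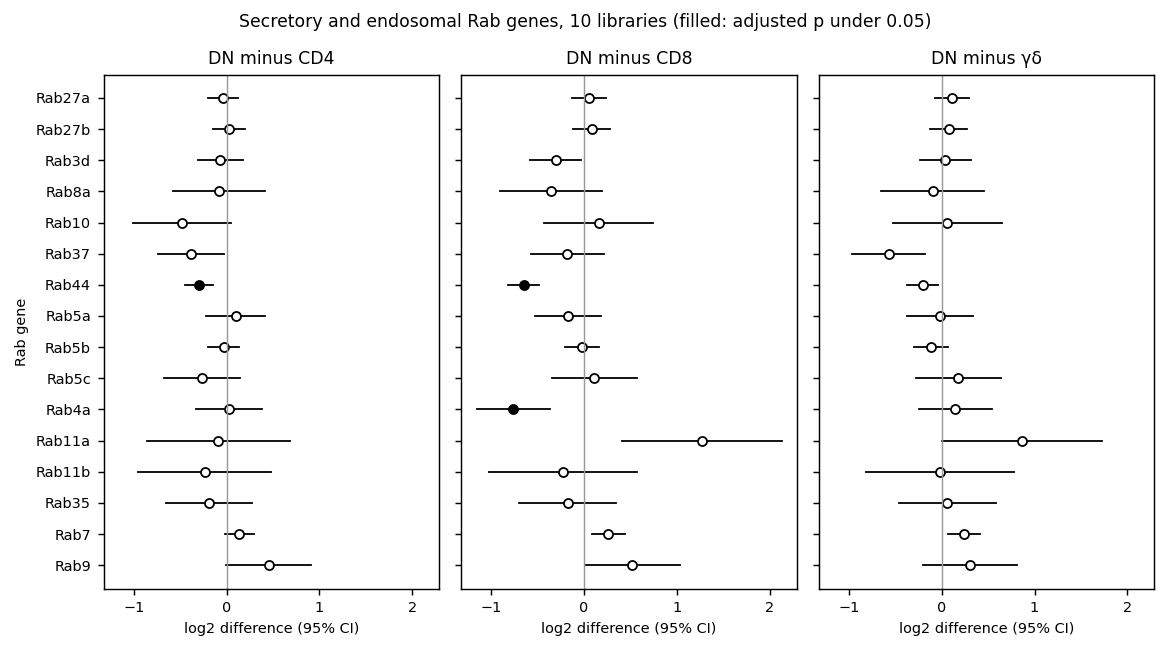
Log2 difference with its 95% confidence interval (x axis) for selected exocytic, early endosome, recycling and late endosome Rab genes (y axis), in DN minus CD4, DN minus CD8 and DN minus γδ, fitted over 10 libraries. Filled points passed an adjusted p under 0.05, and most of the intervals drawn cross 0. Members of these roles that are not drawn include Rab20, Rab17, Rab9b and Rab29, all called in DN against CD8.

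Between the endoplasmic reticulum and the Golgi, Rab1a and Rab43 were called besides Rab30 and Rab39. Rab1a, which drives transport from the endoplasmic reticulum to the Golgi, had a log2 signal of 7.25, 7.60 and 7.51 in DN, 7.42, 7.18 and 7.34 in CD4, 7.47, 7.68 and 7.67 in CD8 and 7.58, 8.07 and 8.28 in γδ libraries. γδ 2 and γδ 3 were the highest of the 12. Without the pair, Rab1a was 1.65-fold lower in DN than in γδ (-0.72 ± 0.12, SE, adjusted p = 0.0456) and 1.81-fold lower in CD4 than in γδ libraries (-0.86 ± 0.12, adjusted p = 0.00428). The second call held in all 10 fits, and the first was lost without any library other than DN 1 or CD4 1 (0.066 to 0.364) and on the value table (0.343). Rab1a was the only Rab gene called in DN against γδ by this fit.

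Rab43, also of the Golgi, had a log2 signal of 6.92, 6.79 and 6.72 in DN, 7.14, 6.82 and 6.94 in CD4, 6.94, 6.53 and 6.61 in CD8 and 6.81, 7.07 and 7.12 in γδ libraries. Without the pair it was lower in CD8 than in γδ libraries (-0.52 ± 0.11, SE, adjusted p = 0.0274), a call lost without DN 2, CD4 3, CD8 2, CD8 3, γδ 2 or γδ 3 (0.052 to 0.168) or on the value table (0.0737). The 12 others of this role, not called, were Rab1b, Rab2a, Rab2b, Rab6a, Rab6b, Rab18, Rab19, Rab33a, Rab33b, Rab34, Rab36 and Rab39b. Among the 5 members of no listed role, Rab28 read 9.45, 9.27 and 9.11 in DN, 9.66, 8.99 and 8.93 in CD4, 9.58, 8.46 and 8.48 in CD8 and 9.36, 8.92 and 8.96 in γδ libraries. It was higher in DN than in CD8 libraries without the pair (0.81 ± 0.21, adjusted p = 0.0497), and this call was lost without any library other than CD4 1 (0.0512 to 0.213) and on the value table (0.187). Rab40b, Rab40c and Rab42 were not called, and Rab23, a regulator of hedgehog signalling detected on 8 of 12 arrays, was not called either.

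**Figure D4:**
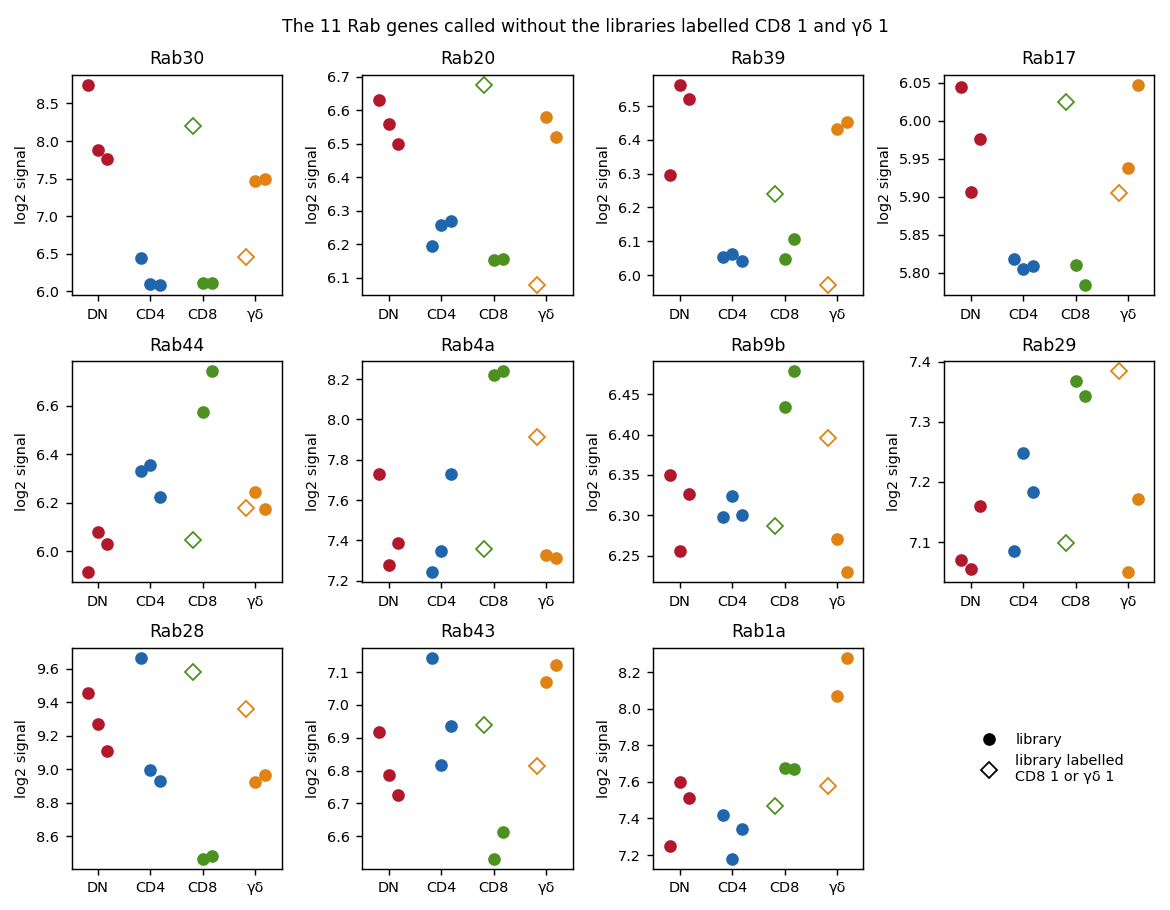
Log2 signal (y axes, each with its own scale) of the 11 Rab genes that passed when CD8 1 and γδ 1 were left out, by fraction (x axis), with 1 marker per library. Open diamonds are the 2 libraries left out, and in Rab30, Rab20 and Rab39 CD8 1 lies above the other CD8 libraries and γδ 1 below the other γδ libraries.

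Over all 12 libraries, the 44 members not called spanned 0.07 to 1.91 log2 units between their lowest and highest library, with a median of 0.49. Part of this spread went with the array series, the letter in the array names. It puts replicate 1 of every fraction on 4 arrays of 1 series and replicates 2 and 3 on 8 arrays of another. The sample labels do not say what the letter stands for. Replicate 1 exceeded the mean of replicates 2 and 3 by more than 0.5 log2 units in both DN and CD4 for Rab11a and Rab2a (3.64% of Rab genes, against 2.95% of all genes), and it was lower by that amount in both for Rab4b and Rab35 (3.64%, against 3.93%). Without the pair, the series of replicate 1 holds only DN 1 and CD4 1, so a series term is estimated from DN and CD4 alone. Its size in CD8 and γδ libraries could not be estimated. With the series as a term in the fit without the pair, 33 Rab genes were called in the F test or any comparison, and all 11 named above were among them. The F test then called 27 (34.8% of all genes). The counts were 16 for DN against CD4, 18 for DN against CD8, 5 for DN against γδ, 15 for CD4 against CD8, 13 for CD4 against γδ and 22 for CD8 against γδ, where 25.4%, 26.5%, 6.26%, 16.7%, 22% and 19.9% of all genes were called. With the replicate number as a block, 28 Rab genes were called. In both fits the 27 calls of the 6 comparisons described above passed again. Series and replicate number cannot be told apart from the round of collection.

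**Figure D5:**
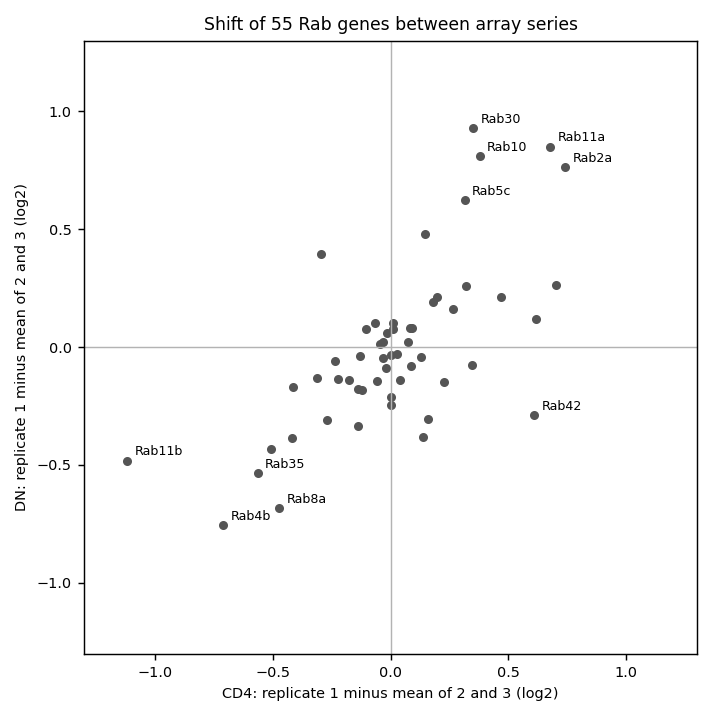
Log2 signal of replicate 1 minus the mean of replicates 2 and 3 for each of the 55 Rab genes, in DN (y axis) and in CD4 libraries (x axis), with 1 point per gene. Rab11a and Rab2a lie above 0.5 on both axes, and Rab4b and Rab35 lie below -0.5 on both.

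With the series as a term, 22 members passed that did not pass in the fit without it. Besides those given below, they were Rab1b, Rab3a, Rab5a, Rab5c, Rab6b, Rab8a, Rab8b, Rab14, Rab19, Rab24, Rab32, Rab33a, Rab33b, Rab35, Rab39b, Rab40b and Rab40c. The few whose differences are given here were picked with their values known. Rab2a, of traffic between the Golgi and the endoplasmic reticulum, had a log2 signal of 10.86, 10.13 and 10.06 in DN, 11.20, 10.44 and 10.47 in CD4, 10.84, 10.44 and 10.48 in CD8 and 11.27, 10.31 and 10.32 in γδ libraries. Within each series DN lay below CD4, and the log2 difference was -0.35 (adjusted p = 0.000155 with the series as a term, 0.548 without it). Rab3d was lower in DN than in CD8 libraries by the same fit (-0.40, adjusted p = 0.000212, against 0.15 without the term). Rab37 was lower in DN than in CD4 (-0.38, adjusted p = 0.0029, against 0.188), and Rab10, a Rab of exocytosis that also carries glucose transporters in fat cells, was lower in DN than in CD4 libraries (-0.48, adjusted p = 0.00704, against 0.277). Rab11a was higher in DN than in CD8 libraries (1.01, adjusted p = 0.0191, against 0.0674).

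The partners of the Rab cycle were counted from lists of chaperones and prenylation enzymes, GEFs, GAPs and effectors, all without the pair. Of 33 GEFs tested, 6 were higher and 2 lower in DN than in CD4, 5 higher and 3 lower in DN than in CD8, and 0 were called in DN against γδ. CD4 against CD8 gave 2 higher and 2 lower in CD4, CD4 against γδ 1 higher and 6 lower in CD4, and CD8 against γδ 2 higher and 6 lower in CD8. Of 33 GAPs, 2 were lower in DN than in CD4, and 2 were higher and 2 lower in DN than in CD8. CD4 against CD8 and CD4 against γδ each gave 2 GAPs higher and 1 lower in CD4. Of 40 effectors, 6 were higher and 2 lower in DN than in CD4, 7 higher and 1 lower in DN than in CD8, and 0 were called in DN against γδ. CD4 against γδ gave 2 effectors higher and 5 lower in CD4, and CD8 against γδ gave 1 higher and 5 lower in CD8. Of 6 chaperones and prenylation enzymes, 1 was lower in DN than in CD4 and 1 lower in DN than in CD8, 2 were lower in CD4 than in CD8, and 1 was higher in CD8 than in γδ. With all 12 libraries, 0 genes of the 4 lists were called in DN against CD8, DN against γδ or CD8 against γδ. DN against CD4 then gave 1 GEF and 1 GAP lower in DN, and 2 effectors higher and 1 lower in DN, and CD4 against CD8 and CD4 against γδ gave 1 each of GEFs, GAPs and effectors. Of all 16942 genes, the fit without the pair called 10.6%, 12.9% and 0.968% in DN against CD4, CD8 and γδ. It called 5.39% and 8.99% in CD4 against CD8 and γδ, and 7.37% in CD8 against γδ. In CD4, 474 genes were higher and 440 lower than in CD8, and 740 higher and 783 lower than in γδ libraries. With all 12 libraries the shares are those given above, and DN against CD4 called 141 genes higher and 245 lower in DN.

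Among the GEFs, Dennd2d, described as an exchange factor of Rab9, had a log2 signal of 7.34, 7.10 and 7.01 in DN, 10.31, 9.70 and 9.56 in CD4, 7.95, 8.35 and 8.50 in CD8 and 9.21, 7.20 and 7.23 in γδ libraries. DN lay below all other libraries but γδ 2 and γδ 3, and the difference from CD4 was -2.71 (adjusted p = 0.000119 without the pair and 0.0238 with all 12 libraries). Dennd4a, described as an exchange factor of Rab10, had 7.40, 7.15 and 7.08 in DN, 5.92, 5.90 and 5.94 in CD4, 7.45, 6.06 and 6.03 in CD8 and 6.39, 6.88 and 6.92 in γδ libraries. It was higher in DN than in CD4 libraries without the pair (1.29 ± 0.08, SE, adjusted p = 4.95e-05) and was not called with all 12 (0.093), and DN, CD8 1, γδ 2 and γδ 3 were again the libraries with high values. Among the GAPs, Tbc1d4 had 6.33, 6.46 and 6.53 in DN and 9.21, 9.53 and 9.58 in CD4 libraries. It had 6.61, 6.25 and 6.29 in CD8 and 6.20, 6.63 and 6.63 in γδ libraries. DN lay below CD4 by -3.00 (limma adjusted p = 2.51e-06 without the pair and 1.51e-05 with all 12). With all 12, Tbc1d4 was also higher in CD4 than in CD8 (3.06, adjusted p = 1.03e-05) and γδ libraries (2.95, adjusted p = 1.56e-05).

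Among the effectors, Sytl3, a synaptotagmin-like protein that binds Rab27 proteins, had a log2 signal of 7.61, 8.12 and 8.02 in DN, 6.38, 6.51 and 6.56 in CD4, 8.08, 7.37 and 7.17 in CD8 and 7.08, 8.08 and 7.98 in γδ libraries. It was higher in DN than in CD4 libraries (1.43 ± 0.13, SE, adjusted p = 0.000585 without the pair and 0.0454 with all 12), and it too was higher in DN, CD8 1, γδ 2 and γδ 3 than in the other 6 libraries. Lrrk2, the kinase that binds Rab29 and phosphorylates several Rab proteins, had 6.47, 6.69 and 6.66 in DN, 5.97, 5.97 and 5.95 in CD4, 6.34, 6.02 and 6.06 in CD8 and 6.04, 6.53 and 6.41 in γδ libraries. It was higher in DN than in CD4 libraries as well (0.64 ± 0.06, adjusted p = 0.000669 without the pair and 0.0396 with all 12), with high values in the same libraries. These are the libraries in which the B cell list was high, and its part in the differences of Dennd4a, Sytl3 and Lrrk2 was not tested. Rab11fip3, an effector of Rab11 proteins, was lower in DN than in CD8 libraries (-0.83 ± 0.07, adjusted p = 0.000465 without the pair and 0.302 with all 12), with 6.27, 6.33 and 6.33 in DN and 6.58, 7.14 and 7.15 in CD8 libraries. Rilpl2 was lower in DN than in CD4 libraries (-0.82, limma adjusted p = 0.00851 without the pair and 0.0204 with all 12). It was higher in CD4 than in CD8 (0.0106 and 0.0154) and γδ libraries (0.0365 and 0.041). Rabggtb, the catalytic subunit of the enzyme that prenylates Rab proteins, was lower in DN than in CD8 libraries (-0.93 ± 0.09, adjusted p = 0.000609 without the pair and 0.443 with all 12), with 9.44, 9.38 and 9.58 in DN and 9.61, 10.41 and 10.39 in CD8 libraries.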

How the data were processed

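The 12 array files hold spot median intensity, per the file headers without background correction or normalization. The deposited value table holds intensity on a linear scale with a median of 25 per array, read from its values since the labels do not state how it was made. Of 27456 spots, 3982 were controls or empty, and 25 flagged probes were left out. Spot medians were corrected with normexp (offset 50, no local background), taken to log2 and quantile normalised. 1 probe per symbol (highest mean) was kept, and 16942 genes that every array (3) of some fraction detected were fitted with limma 3.58.1 in R 4.3.3 (lmFit, eBayes, two-sided, Benjamini-Hochberg over all genes). A gene was called at an adjusted p under 0.05. Scripts were tested on simulated data, and figures were drawn with matplotlib 3.10.9 in Python 3.11.15. The members, lists and tests were chosen with earlier results of these data known. Every Rab gene is named. Values per library are given for those called with or without CD8 1 and γδ 1, and up to 3 genes per Rab cycle list and comparison were eligible. Rab27a, Rab7, Rab5a, Rab11a, Rab3d, Rab37, Rab24 and Rab2a were not called so, and their values per library, with the difference of Rab10, were picked with their values known. Same-numbered libraries of different fractions deviated together (correlation above 0.1 in 18 of 18 pairs, 0.100 to 0.735). For 10 of 12 arrays the best partner had the same number, and the number goes with the array series. Numbers 2 and 3 could correlate as strongly with each other: DN 2 stood at 0.6232 with CD4 3 and at 0.6133 with CD4 2. CD8 2 with γδ 3 stood at 0.0758. Alternatives were no filter on detection, another offset, median scaling, the value table, the mean of a symbol's probes, a block or series term, and leaving libraries out.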

Additional observations from a re-analysis of the deposited data

How the results depend on the processing

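The counts of Rab genes called (F test; DN against CD4, DN against CD8, DN against γδ, CD4 against CD8, CD4 against γδ, CD8 against γδ) were 0 in each with all 12 libraries, and also with median scaling, an offset of 16, the value table, no filter on detection or the mean of a symbol's probes. With all 12 libraries the replicate block gave 1, 3, 0, 0, 2, 1 and 0, and the array series as a term 1, 4, 0, 0, 1, 3 and 0. Leaving out 1 of the 12 libraries gave 0 to 2, 0 to 2, 0 to 2, 0 to 0, 0 to 1, 0 to 2 and 0 to 0. Replicates 2 and 3 alone gave 30, 16, 22, 9, 21, 19 and 24. Of all genes, the F test called 2.48% with the block, 4.75% with the series term and 0.449% to 6.15% with 1 library left out. It called 41.9% of all genes with replicates 2 and 3 alone. There, 49.8% of all genes and 69.1% of Rab genes were called in the F test or any comparison. Without CD8 1 and γδ 1 the counts were 9, 4, 9, 1, 2, 4 and 7, with the replicate block added 23, 16, 15, 8, 14, 13 and 20, and with the array series as a term 27, 16, 18, 5, 15, 13 and 22. Alternatives chosen after seeing the data, also without the pair, gave 5, 4, 5, 0, 0, 4 and 3 on the value table (13 of the 27 calls of the 6 comparisons kept), 7, 4, 6, 0, 2, 4 and 4 with median scaling (18 of 27 kept), and 4 to 13, 3 to 7, 3 to 13, 0 to 1, 0 to 5, 1 to 8 and 1 to 11 when a further library was left out. Without the pair, the F test called 10.2% of all genes on the value table and 12.3% with median scaling. It called 8.45% to 20.9% of all genes when a further library was left out. Under the settings that left out no single library, the 27 differences kept their sign. As labelled, CD8 against γδ stood at -0.06 for Rab20 and -0.33 for Rab30. It changed sign for Rab20 without CD8 replicate 2 (0.0237), without CD8 replicate 3 (0.0216) and without γδ replicate 2 (0.0288), and for Rab30 without CD8 replicate 2 (0.0137) and without CD8 replicate 3 (0.011); the cause was not tested. Over all fits that left out a library, with or without the pair, this difference lay between -0.4261 and 0.0288 for Rab20 and between -1.384 and 0.0137 for Rab30. Signal over background limits dim genes such as Rab15, Rab25 and Rab36, whose values lay within 0.09 log2 units over 12 libraries.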
